A study of Rattus norvegicus with 20 samples.

Results

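The genes described here encode the proteins of the cytosolic ribosome, and they were taken by name: every gene whose symbol in the probe annotation is Rpl or Rps followed by a number. Of 71 such symbols, 8 Rps6k kinases, 5 paralogs (Rpl22l1, Rpl36al1, Rpl37l1, Rpl3l and Rpl7l1) and Rps19bp1, which is no ribosomal protein, were left out. This gave 57 ribosomal protein (RP) genes among 13337 named genes, 35 of the large subunit (Rpl) and 22 of the small subunit (Rps). Each was read by 1 probe, except Rps9, which had 2. A gene was tested when its normalized signal exceeded 200 on at least 5 of the 20 arrays, which left 52 RP genes (31 large, 21 small) among 6102 genes tested. The other 5, Rpl11, Rpl12, Rpl34, Rpl36a and Rps19, had signals from 117.7 to 189.0, under that level on every array, and are described no further. The 56 RP genes with a place in the RefSeq annotation (GRCr8) lay on 19 chromosomes.

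Expression was measured on Illumina rat arrays in livers of male Fischer rats of the R-H (resistant hepatocyte) model, in which a single dose of diethylnitrosamine (DENA) initiates hepatocytes, and a diet with 2-acetylaminofluorene (2-AAF) together with partial hepatectomy (PH) makes the initiated cells grow into lesions. The 20 arrays fell into 4 groups of 5. Control arrays held random areas of liver, called normal liver in one passage of the methods and liver of rats given the R-H protocol in another, with no time stated for each array. Early preneoplastic foci (EPFs) were laser-microdissected 1 week after PH, 4 weeks after DENA and about when the 2-AAF diet ended, and each EPF array held a pool of foci. The nodules, sorted into CK-19-positive ones and CK-19-negative ones by staining for this biliary keratin, were taken 7 weeks after PH and 10 weeks after DENA, 1 nodule to an array. All lesions had thus seen DENA, 2-AAF and PH, but the 2-AAF diet and PH were recent only for EPFs, so that for EPF results the lesion and the recent treatment cannot be told apart. If the controls were normal liver, the nodules also differed from them by these treatments. Lesion and past treatment then cannot be told apart in the nodule comparisons with control either. The labels name no rat, and the animals per group were no more than the arrays, so that arrays may share a rat and p-values measure only the spread between arrays. All EPF arrays lay on chip 4, which held no other array analysed here, so for EPFs the chip and the group cannot be told apart. Chip 1 held controls 1 and 2, CK-19-negative nodule 5 and all CK-19-positive nodules, chip 2 CK-19-negative nodules 1 to 4 with control 3, and chip 3 controls 4 and 5.

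Ribosomal proteins join ribosomal RNA in the nucleolus to form a large subunit, which links amino acids into a chain, and a small subunit, which reads the mRNA. Because each ribosome needs its proteins in equal number, their genes are known to be expressed together, and they are among the most abundant mRNAs of liver. Ribosome production increases when cells grow, as in the liver after PH. In mammals the mRNAs of these genes typically begin with a C followed by an unbroken run of pyrimidines (C or T), a terminal pyrimidine tract, through which growth signals control their translation.

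This start is visible in the genome at many of the measured genes. RefSeq promoter entries (GRCr8) matched 47 of the 57 RP genes. A C followed by at least 4 pyrimidines, at or within 5 bases of the start of the entry's transcript on the gene's strand, was found in 31 of the 47 (66.0%) and in 5704 of all 33469 promoters (17.0%). That start is of 1 transcript and need not be the outer end of the gene: for 46 genes with a place, it lay within 5 bases of that end in 22 and farther downstream in 24. The tract was present and absent at both ends of the order in EPFs. Of the 6 RP genes with the largest log2 fold changes there, it was found in Rpl17 and Rpl31 and not in Rpl5, Rpl6, Rps6 and Rps3, and of the 4 with the smallest, in Rps24 and Rps27 and not in Rpl24 and Rps16. An absence holds for the entry's start only and does not show that the mRNA lacks a tract. The start of Rpl6 lay 1066 bases inside the outer end of the gene. Rpl5 and Rps16 had pyrimidine runs of 11 bases near the start that began outside the 5 bases searched. The sequences below, of the 4 with a tract and of Rps3 as an example without one, run from 25 bases before the entry's start to 25 bases past it, with the tract in capitals.
Rpl17: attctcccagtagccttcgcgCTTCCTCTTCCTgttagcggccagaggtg
Rpl31: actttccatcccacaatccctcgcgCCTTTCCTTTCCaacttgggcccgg
Rps24: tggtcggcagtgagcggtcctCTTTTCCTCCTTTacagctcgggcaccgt
Rps27: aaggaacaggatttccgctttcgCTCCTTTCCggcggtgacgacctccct
Rps3: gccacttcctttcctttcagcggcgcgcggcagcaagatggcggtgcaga
The windows are chr18:70856251-70856300 (plus strand) for Rpl17, chr9:49143086-49143135 (plus) for Rpl31, chr16:96492-96541 (plus) for Rps24, chr2:177964582-177964631 (minus) for Rps27 and chr1:163195752-163195801 (minus) for Rps3. Their starts lay 1, 67, 1088, 102 and 109 bases inside the outer end of the gene, in that order. The tract was 12 bases long in Rpl17 and in Rpl31, 13 in Rps24 and 9 in Rps27. In Rps24 the marked stretch was part of a pyrimidine run of 17 bases that began farther upstream than the 5 bases searched. In Rps3 the longest pyrimidine run of the window, 14 bases, lay farther upstream than the 5 bases searched. Of the RP genes with an entry, 25 of 37 called higher in EPFs had a tract (67.6%), and 3 of 5 not called (60.0%). Another 5 motifs were searched on both strands from 250 bases before to 50 after the start, and their matches may overlap each other. The share of RP promoters against all promoters was 31.9% against 8.75% for CCGGAAG (an ETS factor core), 55.3% against 33.1% for GGGCGG (the SP1 box), 17.0% against 6.96% for GCCATNTT (YY1), 8.51% against 6.42% for CACGTG (the E-box) and 8.51% against 14.2% for TATAAA (the TATA box). These are matches of letters and show no binding.

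The signals of RP genes were far above background for most members. Of the 52 tested, 47 had a mean over 1000 and 32 over 10000 across the 20 arrays, on a scale with a median of 157 on every array and a highest value of 44882.6. The exceptions were Rpl5, Rpl15, Rps16, Rpl31 and Rps24, with means from 208 to 536. Signals of different probes are not compared here, since each probe has its own brightness. Many RP genes have near-identical processed copies in mammalian genomes, and a probe may also read such copies, which is uncertain for every gene named below.

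RP genes were higher in EPFs than in control liver almost throughout. Of the 52 tested, 46 rose (limma, adjusted p under 0.05), none fell, and all 52 had a positive log2 fold change, with a median of 0.78. Over all 6102 genes the median was -0.02, 28.3% were called higher and 27.7% lower. At least 2-fold rises were found for 13, against 6.26% of all genes, and for 45 the EPF arrays and the controls did not overlap, against 21.9%. Of the large subunit genes 29 of 31 rose (median 0.76), and of the small subunit genes 17 of 21 (median 0.79). No RP gene was lower at an unadjusted p under 0.05 from limma (30.0% of all genes were), and an unmoderated test of each gene alone called 45 higher and none lower. Here and below, shares of all genes belong to the limma fit reported. For the unmoderated test and the chip fits no share is given, so their counts have no background. In microdissected tissue, more cells of one kind and more mRNA per cell cannot be told apart.

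**Figure D1:**
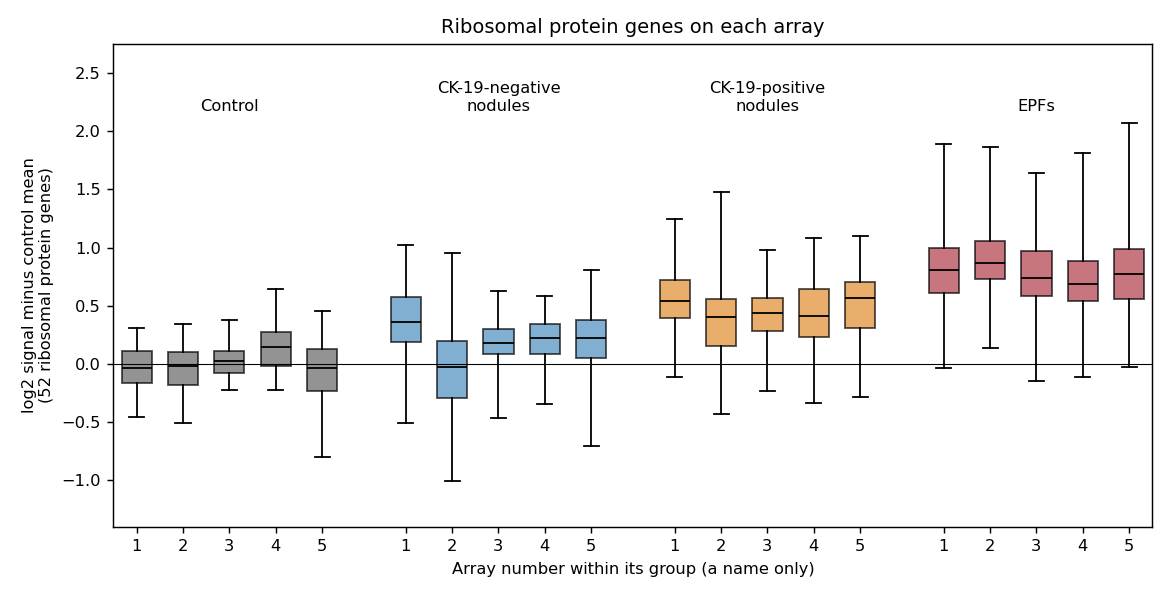
Each box is an array and holds the log2 normalized signals of the 52 tested RP genes minus each gene's control mean (line, median; box, quartiles; whiskers, full range). The EPF arrays had medians from 0.69 to 0.87, the CK-19-positive nodules from 0.40 to 0.56, the CK-19-negative nodules from -0.03 to 0.36 and the controls from -0.04 to 0.14.

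The rise was present on every EPF array, as the plot of members by array shows. The array medians of the log2 difference from the control mean were 0.80, 0.87, 0.73, 0.69 and 0.77 on EPF arrays 1 to 5 and -0.04, -0.01, 0.02, 0.14 and -0.03 on controls 1 to 5. On each EPF array, between 45 and 49 of the 52 RP genes exceeded all controls, but the share of all genes that did so was not counted. The signals of the RP genes made up 4.96% ± 0.17 of the summed signal of an EPF array and 2.95% ± 0.18 of a control array (SD, n = 5 each). The spread between arrays was lowest in EPFs, which were pools on a single chip, with a median SD over the 52 genes of 0.10 on the log2 scale, against 0.18 in controls, 0.16 in the CK-19-positive and 0.24 in the CK-19-negative group.

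Rpl5, a large subunit protein that binds 5S ribosomal RNA and, in its free form, the p53 ligase MDM2, rose in EPFs from control signals near background. Its signals were 665.2, 652.1, 556.9, 629.7 and 753.3 on EPF arrays 1 to 5 and 165.2, 172.0, 179.7, 168.3 and 213.5 on controls 1 to 5. They were 305.4, 273.7, 217.8, 215.0 and 225.6 in CK-19-positive nodules 1 to 5 and 176.5, 205.0, 216.1, 241.7 and 206.6 in CK-19-negative nodules 1 to 5. Every EPF array thus exceeded every other array, the CK-19-positive nodules lay just above the highest control, and the CK-19-negative nodules overlapped the controls. The log2 fold change in EPFs was 1.86 (SE 0.11, 3.62-fold, adjusted p = 1.008e-11 from limma), against 0.45 in CK-19-positive nodules (adjusted p = 0.002334) and 0.22 in CK-19-negative nodules (adjusted p = 0.2109). The control signals lay in the range of the 5 untested RP genes on every array but control 5, so neither the size nor its place in the order is fixed. The log2 fold change in EPFs was the largest of the 52 as measured, 3.40 with the 10% point of all signals (128.1) subtracted, and 1.11 with signals under 300 raised to 300, then the sixth, below Rpl17, Rpl6, Rpl31, Rps6 and Rps3. In CK-19-positive nodules the raised signals gave 0.01 and no call.

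Rpl17, a protein at the rim of the exit tunnel of the large subunit, separated all groups. Its signals were 6720.8, 7916.7, 7792.2, 8414.5 and 6269.5 on controls 1 to 5 and 21745.5, 25541.7, 20694.2, 21674.9 and 23160.6 on EPF arrays 1 to 5. They were 17493.1, 14840.0, 14290.7, 14119.7 and 14621.9 in CK-19-positive nodules 1 to 5 and 11213.4, 9789.3, 11348.0, 11025.2 and 12530.7 in CK-19-negative nodules 1 to 5. No array of a group overlapped another group, in the order control, CK-19-negative, CK-19-positive and EPF. The log2 fold changes against control were 1.61 in EPFs (SE 0.10, 3.05-fold, adjusted p = 9.481e-12 from limma), 1.03 in CK-19-positive nodules (adjusted p = 1.357e-08) and 0.60 in CK-19-negative nodules (adjusted p = 0.0001736).

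Rpl6, another large subunit protein, followed a similar order with more overlap. Its signals on EPF arrays 1 to 5 were 26901.2, 22853.5, 21745.5, 23599.6 and 26572.9, against 7756.2, 7592.7, 11419.0, 12743.3 and 13055.5 on controls 1 to 5. CK-19-positive nodules 1 to 5 had 18091.3, 19190.5, 15231.9, 15966.6 and 16355.7, and CK-19-negative nodules 1 to 5 had 12658.0, 14987.7, 13958.8, 14248.1 and 12591.9. EPF and CK-19-positive arrays each lay above all arrays of the groups with lower means, and CK-19-negative nodules overlapped the controls. The log2 fold change was 1.25 in EPFs (adjusted p = 6.769e-08 from limma), 0.73 in CK-19-positive nodules (adjusted p = 0.0001259) and 0.42 in CK-19-negative nodules (adjusted p = 0.03794). The last call was lost without control 1 (0.32) or 2 (0.31) or without CK-19-negative nodule 2 (0.38), 3 (0.41) or 4 (0.40).

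Rps6, the small subunit protein that is phosphorylated by S6 kinases under mTOR signalling, had 21402.9, 22516.1, 21490.6, 21114.1 and 22294.3 on EPF arrays 1 to 5 and 8808.4, 9498.4, 10223.4, 9515.4 and 10599.4 on controls 1 to 5. Its signals were 15149.6, 14008.6, 14406.8, 11736.0 and 14290.7 in CK-19-positive nodules 1 to 5 and 11592.5, 12471.7, 11525.7, 11184.7 and 11089.8 in CK-19-negative nodules 1 to 5. All lesions lay above all controls, the EPF arrays lay above every nodule, and the nodule groups overlapped through CK-19-positive nodule 4. The log2 fold changes were 1.16 in EPFs (adjusted p = 7.154e-11 from limma), 0.51 in the CK-19-positive (adjusted p = 1.701e-05) and 0.25 in the CK-19-negative nodules (adjusted p = 0.03682). The last call was lost without control 1 (0.22), 2 (0.24) or 4 (0.24), without CK-19-negative nodule 1 (0.25), 2 (0.22) or 3 (0.25), and with chip as a random (0.25) or fixed (0.23) block.

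Rpl31, which also sits at the tunnel exit, was dimmer but gave the same picture in EPFs. Its signals were 903.9, 846.0, 797.1, 832.1 and 777.0 on EPF arrays 1 to 5, 466.1, 557.4, 500.8, 567.1 and 601.4 in CK-19-positive nodules 1 to 5, 497.4, 419.7, 343.6, 382.2 and 377.0 in CK-19-negative nodules 1 to 5 and 346.7, 462.4, 311.5, 342.5 and 377.8 on controls 1 to 5. The EPF arrays stood above all others, the CK-19-positive nodules above the controls, and the CK-19-negative nodules overlapped the controls. The log2 fold change in EPFs was 1.19 (adjusted p = 7.47e-09 from limma).

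Another 7 RP genes rose at least 2-fold in EPFs. The small subunit genes were Rps2 (log2 fold change 1.10, adjusted p = 0.0002218), Rps7 (1.09, adjusted p = 2.048e-09), Rps26 (1.08, adjusted p = 0.0002921), Rps12 (1.06, adjusted p = 0.0002012) and Rps10 (1.01, adjusted p = 1.241e-08), and the large subunit genes were Rpl13 (1.09, adjusted p = 5.734e-06) and Rpl19 (1.06, adjusted p = 9.516e-11), all from limma. Just under 2-fold came Rps4x (0.98, adjusted p = 7.871e-09), Rps23, a protein of the decoding centre (0.97, adjusted p = 2.384e-05), Rpl35a (0.93, adjusted p = 1.814e-05) and Rpl23a (0.91, adjusted p = 4.014e-08). Rps9 was read by 2 probes, which gave 0.71 (adjusted p = 3.565e-05) and 0.75 (adjusted p = 0.002343) in EPFs, and 0.43 (adjusted p = 0.006405) and 0.36 (adjusted p = 0.1402) in CK-19-positive nodules, all in the fit of every probe by itself. Rpl41, whose probe came closest to the top of the scale (44882.6), read 38458.2 to 42071.4 in EPFs and 24624.2 to 43417.9 in controls (log2 fold change 0.36, adjusted p = 0.02296 from limma). Leaving out control 2 (0.32) or control 5 (0.28) ended this call.

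**Figure D2:**
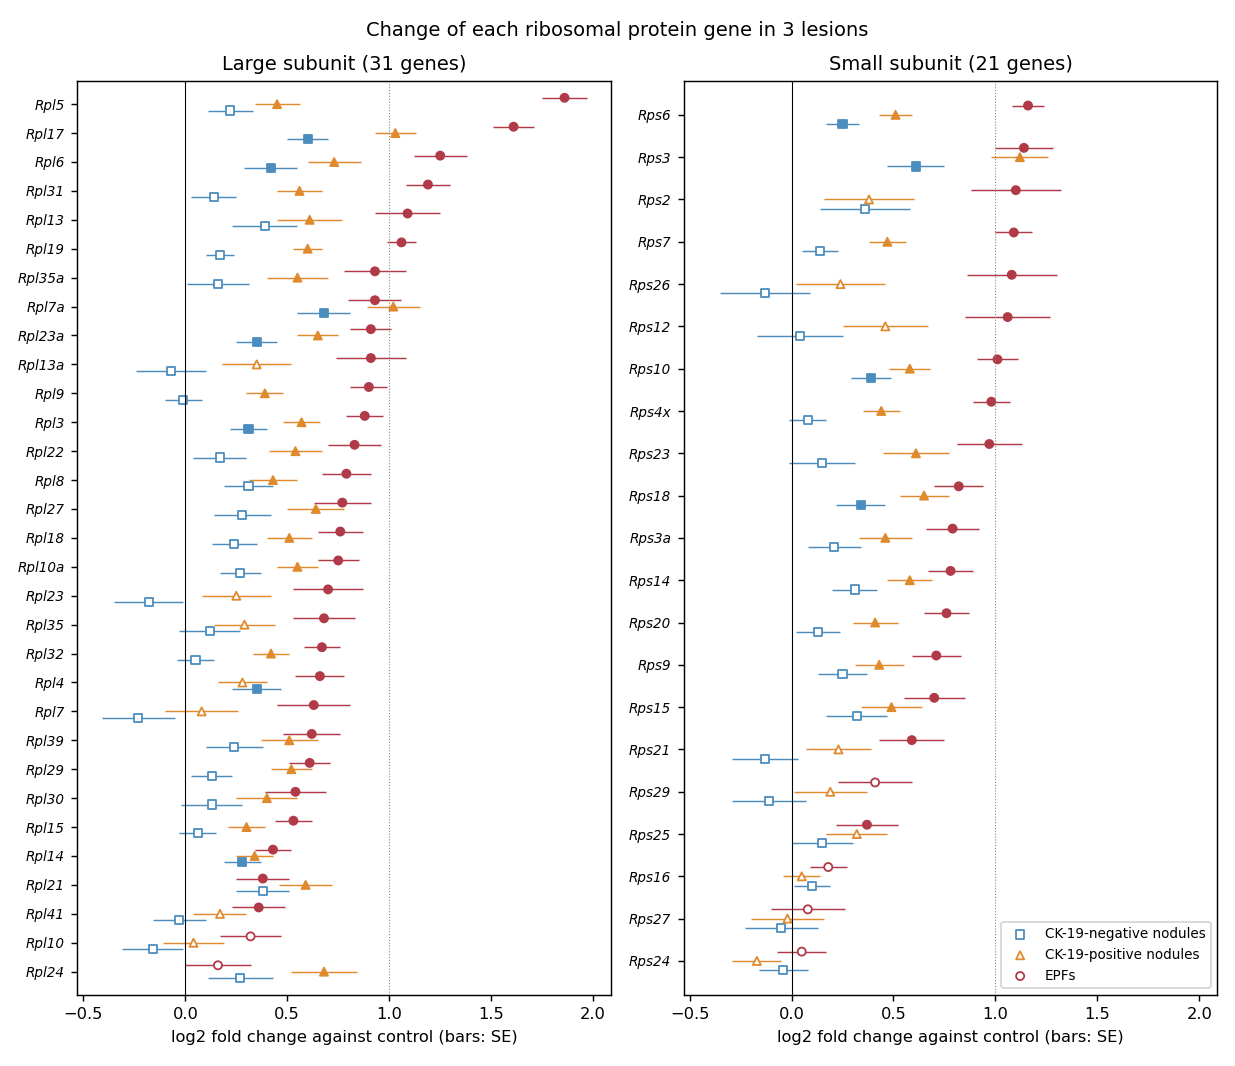
Log2 fold change against control of each tested RP gene (x axis; bars, SE of the limma fit), large subunit genes left and small subunit genes right, ordered by the EPF value. Circles are EPFs, triangles CK-19-positive and squares CK-19-negative nodules, filled when the adjusted p was under 0.05, and the dotted line marks 2-fold: 13 EPF circles lie beyond it, among them Rpl17 at 1.61 and Rpl5, which had control signals near background, at 1.86.

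In EPFs 6 RP genes did not pass the test: Rps24, Rps27, Rpl24, Rps16, Rpl10 and Rps29. For Rps27, a zinc finger protein of the small subunit, the signals were 18583.4, 18992.9, 21597.1, 25071.0 and 12872.6 on controls 1 to 5 and 18492.5, 20809.1, 22621.3, 19781.3 and 18583.4 on EPF arrays 1 to 5. They were 20161.3, 14799.7, 18583.4, 19371.1 and 21597.1 in CK-19-positive nodules 1 to 5 and 22294.3, 10457.6, 21114.1, 19708.4 and 21674.9 in CK-19-negative nodules 1 to 5. All groups overlapped, with log2 fold changes of 0.08, -0.02 and -0.05 in EPFs and the CK-19-positive and the CK-19-negative nodules (SE 0.18, adjusted p = 0.747, 0.9484 and 0.8999 from limma).

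Rps24, a small subunit protein needed for processing of ribosomal RNA, was dim. Its signals were 447.2, 392.5, 371.7, 379.2 and 420.6 on controls 1 to 5 and 416.7, 518.2, 363.3, 370.2 and 425.6 on EPF arrays 1 to 5. CK-19-positive nodules 1 to 5 had 371.1, 373.2, 340.8, 348.2 and 355.9, and CK-19-negative nodules 1 to 5 had 470.7, 489.8, 343.8, 358.1 and 324.5. All lesion groups overlapped the controls, with log2 fold changes of 0.05, -0.17 and -0.04 in EPFs and the CK-19-positive and the CK-19-negative nodules.

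Rps16 gave signals near background, at 227.7, 197.5, 200.2, 186.6 and 171.0 on controls 1 to 5 and 222.7, 233.8, 225.4, 214.1 and 213.2 on EPF arrays 1 to 5. CK-19-positive nodules 1 to 5 had 196.5, 196.2, 216.7, 191.6 and 209.8, and CK-19-negative nodules 1 to 5 had 226.4, 178.9, 214.6, 224.5 and 208.5. The groups overlapped (log2 fold change 0.18 in EPFs, adjusted p = 0.08289 from limma). Rps29 missed the threshold at 0.41 (adjusted p = 0.06302 from limma) although its EPF arrays, 10764.2 to 12872.6, lay above its controls, 7996.8 to 9675.6. Rpl10 was at 0.32 (adjusted p = 0.08162 from limma).

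**Figure D3:**
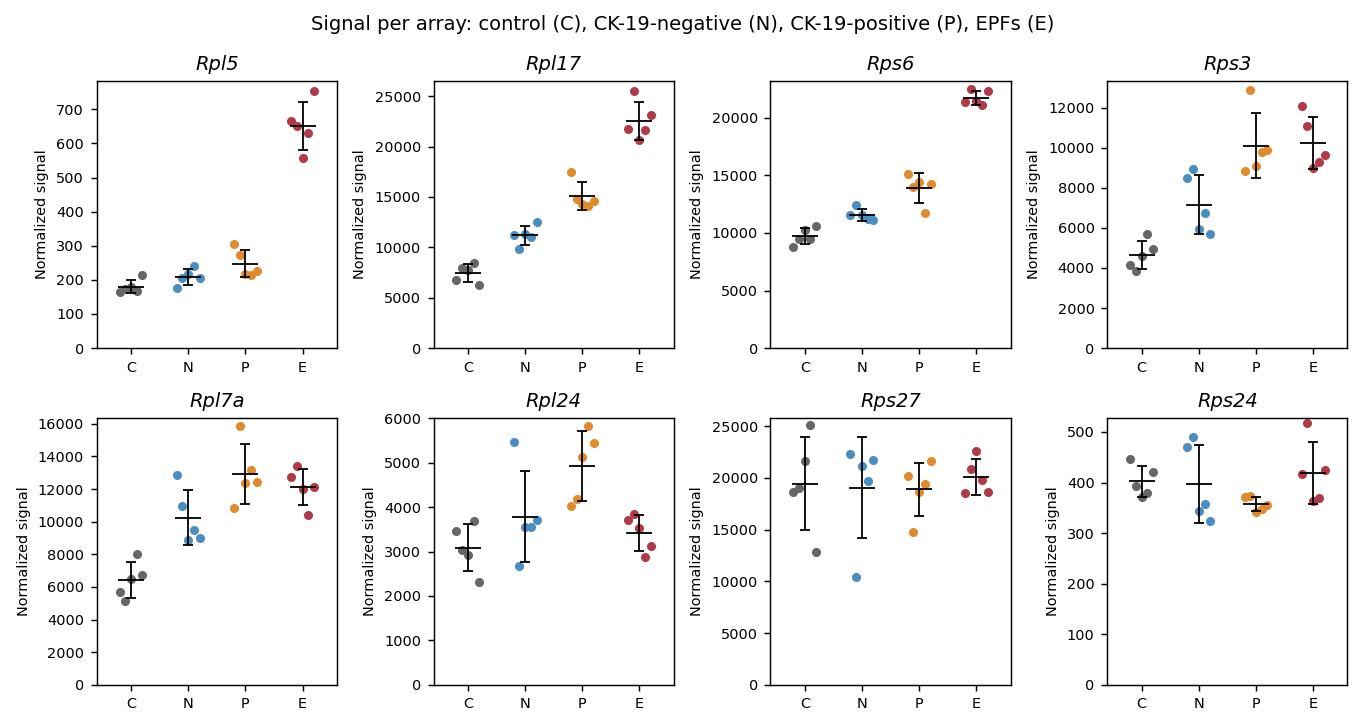
Normalized signal on each array (points, y axis from 0, each gene on its own scale) for 8 RP genes in control liver (C), CK-19-negative nodules (N), CK-19-positive nodules (P) and EPFs (E), with the mean and SD of 5 arrays as black bars. Rpl5 and Rps6 stand highest in EPFs, and Rps3 and Rpl7a overlap between EPFs and CK-19-positive nodules. Rpl24 has its highest mean in CK-19-positive nodules, with overlap by CK-19-negative nodules, and Rps27 and Rps24 overlap in all groups.

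In CK-19-positive nodules 36 of the 52 RP genes rose against control and none fell by limma, with a median log2 fold change of 0.46 where the median of all genes was -0.01, 23.4% were called higher and 22.6% lower. Rises of at least 2-fold were found for 3, Rps3, Rpl17 and Rpl7a (4.95% of all genes), and for 31 the arrays of both groups did not overlap (16.6% of all genes). Of the large subunit genes 24 of 31 rose (median 0.51) and of the small subunit genes 12 of 21 (median 0.44). At an unadjusted p under 0.05 from limma, none was lower (26.3% of all genes were), and an unmoderated test of each gene alone called 33 higher and 1 lower, Rps24 (share of all genes not given). Within chip 1, which held all CK-19-positive nodules and 2 controls, 36 were called higher with a median of 0.48, and with chip as a fixed block 31 were called higher with a median of 0.46.

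Rps3, a small subunit protein at the mRNA entry channel that also acts as a DNA repair endonuclease, rose most in these nodules. Its signals were 8857.3, 12872.6, 9078.2, 9765.1 and 9878.0 in CK-19-positive nodules 1 to 5 and 4157.4, 3848.0, 4616.4, 5685.9 and 4951.5 on controls 1 to 5. They were 12067.8, 11089.8, 8995.2, 9295.8 and 9658.4 on EPF arrays 1 to 5 and 8481.6, 8930.1, 5933.8, 6747.2 and 5701.0 in CK-19-negative nodules 1 to 5. Every lesion array lay above every control, and EPFs and CK-19-positive nodules overlapped. The log2 fold changes were 1.12 in CK-19-positive nodules (adjusted p = 7.515e-07 from limma), 1.14 in EPFs (adjusted p = 3.879e-07) and 0.61 in CK-19-negative nodules (adjusted p = 0.004317).

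Rpl7a, a large subunit protein, gave a like pattern. Its signals were 10851.6, 15836.2, 12378.2, 13159.3 and 12426.4 in CK-19-positive nodules 1 to 5 and 5658.8, 5135.2, 6511.7, 8017.3 and 6747.2 on controls 1 to 5. They were 12743.3, 13404.9, 12021.5, 10427.4 and 12139.1 on EPF arrays 1 to 5 and 12872.6, 10932.8, 8875.2, 9498.4 and 9019.4 in CK-19-negative nodules 1 to 5. All lesion arrays lay above all controls, and the lesion groups overlapped each other. The log2 fold changes were 1.02 in CK-19-positive nodules (adjusted p = 7.92e-07 from limma), 0.93 in EPFs (adjusted p = 1.894e-06) and 0.68 in CK-19-negative nodules (adjusted p = 0.0007502).

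Rpl24, a large subunit protein at the interface with the small subunit, was called in CK-19-positive nodules and was not called in the other lesions. Its signals were 4017.2, 4177.2, 5135.2, 5837.0 and 5443.2 in CK-19-positive nodules 1 to 5 and 3457.2, 3026.7, 2923.7, 3696.0 and 2324.3 on controls 1 to 5. They were 3718.0, 3848.0, 3526.1, 2885.3 and 3125.0 on EPF arrays 1 to 5 and 5462.4, 2663.5, 3555.5, 3545.3 and 3701.2 in CK-19-negative nodules 1 to 5. The CK-19-positive nodules lay above all controls and all EPF arrays, and CK-19-negative nodule 1 reached their range. The log2 fold change was 0.68 in CK-19-positive nodules (adjusted p = 0.001269 from limma), 0.16 in EPFs (adjusted p = 0.4145) and 0.27 in CK-19-negative nodules (adjusted p = 0.2634). Set directly against CK-19-negative nodules, CK-19-positive nodules differed by 0.40, which was not called (adjusted p = 0.05958 from limma).

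CK-19-negative nodules showed the smallest shift. Of the 52 RP genes 11 rose against control by limma and none fell, with a median of 0.17, where the median of all genes was -0.00, 8.77% were called higher and 7.36% lower. The 11 were Rpl7a, Rps3, Rpl17, Rpl6, Rps10, Rpl4, Rpl23a, Rps18, Rpl3, Rpl14 and Rps6, with log2 fold changes from 0.25 to 0.68. None rose 2-fold (1.29% of all genes did), and for 6 the arrays did not overlap (6.21% of all genes). At an unadjusted p under 0.05 from limma 19 were higher (15.1% of all genes) and none lower (14.3%), and an unmoderated test of each gene alone called 4 higher and none lower. The count depended on single arrays and on the chip: it was 5 without CK-19-negative nodule 3, 7 without control 1, 2 or 3 or CK-19-negative nodule 4, 4 with chip as a fixed block, and 0 within chip 1 and within chip 2, where 1 group had a single array, taken to vary like the others, and the medians were 0.29 and 0.15. With chip as a block Rpl17 (0.61), Rps3 (0.61), Rpl7a (0.71) and Rpl6 (0.48) kept their calls.

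Single CK-19-negative nodules differed from each other. The array medians were 0.36, -0.03, 0.18, 0.22 and 0.22 in nodules 1 to 5, and 36, 11, 21, 24 and 28 RP genes exceeded all controls on them. Shares of all genes were not counted for single arrays, so counts per array have no background here. By its median, nodule 2 was at the control level and nodule 1 near the CK-19-positive range of 0.40 to 0.56. Within the group, nodule 2 had the lowest signal for 34 of the 52 RP genes and nodule 1 the highest for 29, and without nodule 2 the count called higher was 13 and the median 0.26.

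The comparisons with control share the control arrays, so the lesions were also compared directly. EPFs exceeded CK-19-positive nodules for 27 RP genes by limma (median of the 52, 0.30), where 23.1% of all genes were called higher, and fell below them for 1, where 24.0% were called lower. For 23 the EPF arrays lay above all CK-19-positive arrays (18.5% of all genes). Rpl5 differed most, by 1.40 (adjusted p = 4.522e-09 from limma), and was the 1 gene past 2-fold (2.74% of all genes), though its CK-19-positive signals were also low and the difference was 1.11 with signals under 300 raised to 300. Rps26 (0.83, adjusted p = 0.003957), Rps2 (0.73, adjusted p = 0.01008) and Rps6 (0.65, adjusted p = 1.202e-06) followed. Rps3 and Rpl7a, high in both, differed by 0.02 (adjusted p = 0.9039) and -0.08 (adjusted p = 0.6183). Rpl24 was the gene that was lower in EPFs (log2 fold change -0.52, SE 0.16, adjusted p = 0.00989 from limma), and its arrays did not overlap (p = 0.007937 in an exact two-sided permutation test, which is the smallest that 5 arrays against 5 allow). The number called higher ranged from 20 to 31 when any array was left out.

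**Figure D4:**
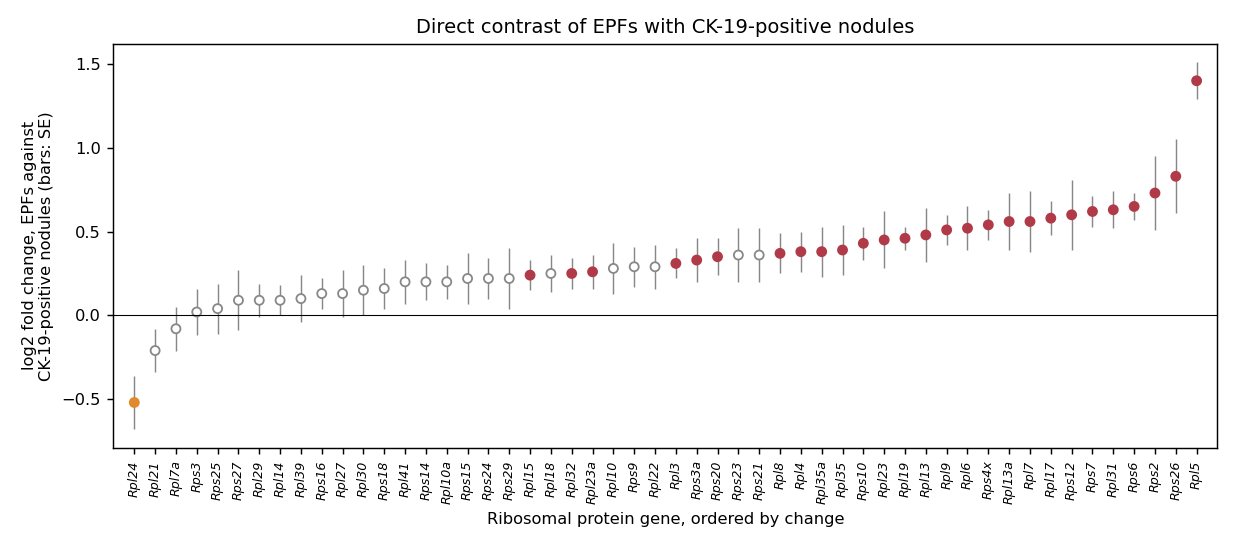
Log2 fold change of EPFs against CK-19-positive nodules for the 52 tested RP genes, ordered by value (bars, SE of the limma fit, filled points with adjusted p under 0.05). Rpl24 at -0.52 is the 1 filled point below 0 and Rpl5 at 1.40 the highest of 27 above.

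EPFs exceeded CK-19-negative nodules for 44 RP genes by limma and fell below them for none (median 0.56), where 26.7% of all genes were called higher and 25.7% lower. For 5 the difference was past 2-fold (4.13% of all genes), and for 35 the arrays did not overlap (19.8%). There too none was lower at an unadjusted p under 0.05 from limma (28.4% of all genes were), and an unmoderated test of each gene alone called 41 higher and none lower. CK-19-positive nodules exceeded CK-19-negative nodules for 18 RP genes and were lower for none (median 0.28), where 15.3% of all genes were called higher and 13.6% lower. None of them was past 2-fold (2.39% of all genes were), and the arrays of 4 did not overlap (9.64% of all genes). The largest differences there were Rps3 (0.51, adjusted p = 0.008212), Rps23 (0.46, adjusted p = 0.03614), Rpl17 (0.43, adjusted p = 0.001753) and Rpl19 (0.43, adjusted p = 0.0001504), all from limma. At an unadjusted p under 0.05 from limma 29 were higher (20.2% of all genes) and none lower (18.8%), and an unmoderated test called 11 higher and none lower. This count moved with single arrays and the chip: 28 without CK-19-negative nodule 1, 12 without nodule 2 and 11 without nodule 3 of that group, 10 without CK-19-positive nodule 5, 4 with chip as a fixed block and 2 within chip 1, where the CK-19-negative group was a single array, taken to vary like the others, and the median was 0.26.

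As a description of all 52 tested RP genes, 49 had their highest group mean in EPFs (31.9% of all genes), 41 their lowest in control (27.2%), and 36 followed the order EPF, CK-19-positive, CK-19-negative and control (10.8%). Across the 20 arrays the mean pairwise correlation of the RP genes was 0.63 on the log2 scale, and 0.181 after the group means were removed, with 67.9% of pairs above 0. The arrays share group structure and normalization, so these values describe the data set only.

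Genes that work beside these proteins were counted in lists. Their counts are to be read against the shares of all genes called higher (28.3% in EPFs, 23.4% in the CK-19-positive group and 8.77% in the CK-19-negative group) and lower (27.7%, 22.6% and 7.36%). Of the other cytosolic ribosome genes, Rack1, Rpsa, Rplp0 and Rplp1 were tested and all 4 rose in EPFs, with a median of 0.85. Rack1, a scaffold protein of the small subunit, went from 4701 ± 965 in control to 15281 ± 1124 in EPFs (SD, n = 5 each), a log2 fold change of 1.72 (adjusted p = 1.254e-07 from limma). Rpsa rose in every lesion, by 0.98 in EPFs (adjusted p = 2.117e-08), 0.83 in CK-19-positive nodules (adjusted p = 3.631e-07) and 0.60 in CK-19-negative nodules (adjusted p = 0.0001779). Of the 5 paralogs left out of the RP count, 3 rose and 1 fell in EPFs. Rpl37l1 rose there by 0.82 (adjusted p = 0.008091 from limma) and Rpl7l1 by 0.35 (adjusted p = 0.004379). Rpl22l1, near background in control (mean 191.3), rose in each lesion (0.42, 0.59 and 0.42 in EPFs and the CK-19-positive and the CK-19-negative nodules). The muscle form Rpl3l fell by 0.33 in EPFs (adjusted p = 0.001319), also at low signals (means 263.8 in control and 210.7 in EPFs).

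Ribosome biogenesis genes serve the making of ribosomes, and their list also held the transcription factor gene Myc. Of the 39 tested, 32 rose and 1 fell in EPFs (28.3% and 27.7% of all genes did, median of the list 0.71). In CK-19-positive nodules 19 rose (23.4% of all genes, median 0.29), and in CK-19-negative nodules 13 rose and 1 fell (8.77% and 7.36%, median 0.17). Nhp2, of the particles that guide pseudouridylation of RNA, had the largest rise in EPFs together with Nop58, a core protein of the methylation guide particles, both at 1.96 (adjusted p = 3.925e-11 and 5.316e-09 from limma). Npm1, the nucleolar phosphoprotein nucleophosmin, rose by 1.74 (adjusted p = 5.905e-05), and the gene that fell in EPFs was the kinase gene Riok1 (-0.30, adjusted p = 0.04211). Myc, the transcription factor that drives ribosome production, rose by 1.86 in EPFs, 2.39 in CK-19-positive and 1.48 in the CK-19-negative nodules (adjusted p = 5.201e-09, 1.509e-10 and 2.025e-06). Set directly against CK-19-positive nodules, EPFs had 28 of the 39 higher and 1 lower (23.1% and 24.0% of all genes, median 0.41). The 1 lower was Myc (-0.54, adjusted p = 0.01231 from limma). Of 10 translation factors and mRNAs with the same kind of start, 8 rose in EPFs (28.3% of all genes, median 0.49), 6 in CK-19-positive nodules (23.4%, median 0.32) and 4 in CK-19-negative nodules (8.77%, median 0.14), led in EPFs by the elongation factor subunits Eef1d (1.11, adjusted p = 2.026e-09) and Eef1b2 (0.94, adjusted p = 4.598e-06).

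Mitochondria have ribosomes of their own, with proteins encoded by separate nuclear genes. Of 56 tested, 31 rose and 2 fell in EPFs (28.3% and 27.7% of all genes did, median of the list 0.35). In CK-19-positive nodules 7 rose and 8 fell (23.4% and 22.6% of all genes, median -0.05), and in CK-19-negative nodules 3 rose and 2 fell (8.77% and 7.36%, median -0.02), shares below those of all genes. In the direct contrast 29 were higher in EPFs than in CK-19-positive nodules and none lower by limma (23.1% and 24.0% of all genes, median 0.35). Mrpl13 rose by 1.41 in EPFs (adjusted p = 7.277e-08) and by 0.52 in CK-19-positive nodules (adjusted p = 0.007793), and Mrpl35 rose by 0.97 in EPFs (adjusted p = 4.528e-06) and fell by 0.47 in CK-19-positive nodules (adjusted p = 0.009344). Of 51 oxidative phosphorylation subunits, 15 rose in EPFs, a share near the 28.3% of all genes, and 2 fell (27.7%, median 0.13). In CK-19-positive nodules 2 rose and 6 fell (23.4% and 22.6% of all genes, median -0.12), and in CK-19-negative nodules none rose by limma and 2 fell (8.77% and 7.36%, median -0.15). At an unadjusted p under 0.05 from limma, 1 was higher and 9 were lower in CK-19-negative nodules (15.1% and 14.3% of all genes).

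**Figure D5:**
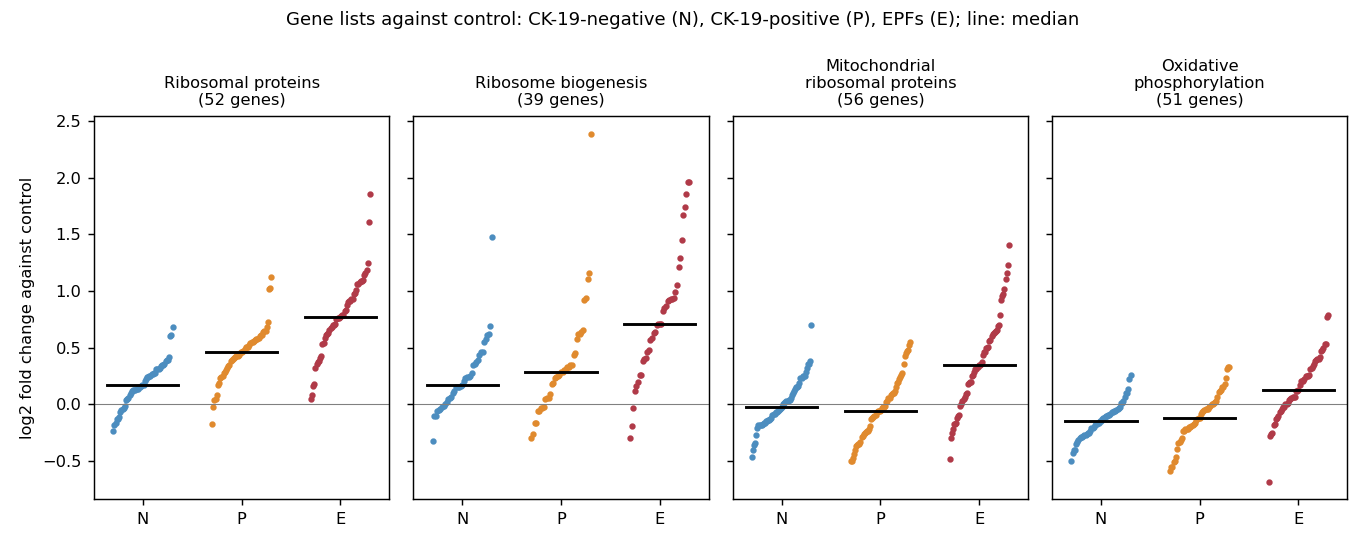
Log2 fold change against control of each tested gene in 4 lists (points ordered by value; black line, median) in CK-19-negative nodules (N), CK-19-positive nodules (P) and EPFs (E). The RP genes had medians of 0.17, 0.46 and 0.78 in that order, ribosome biogenesis genes 0.17, 0.29 and 0.71, and mitochondrial ribosomal proteins -0.02, -0.05 and 0.35.

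Markers of cell types were also counted. Of all genes, 28.3%, 23.4% and 8.77% were called higher in EPFs and the CK-19-positive and the CK-19-negative nodules. In the same order, 27.7%, 22.6% and 7.36% were called lower. The marker counts are to be read against these shares. The summed signal of 7 hepatocyte markers was 152279 to 217301 in control, 170710 to 200095 in EPFs, 175903 to 199278 in CK-19-positive and 183644 to 211085 in the CK-19-negative nodules, and all groups overlapped. Single members moved both ways under that sum: in EPFs 1 of the 7 rose (Cps1, 0.86) and 2 fell (Ttr, -0.57, and Asgr1, -0.83), in CK-19-positive nodules 3 rose (Alb, Tf and Serpina1, 0.41 to 0.42) and 2 fell (Fgb, -0.53, and Asgr1, -0.51), and in CK-19-negative nodules none was called by limma, also at an unadjusted p under 0.05. The 2 of 7 that fell in EPFs are a share near that of all genes. Of 4 tested biliary and oval cell markers (Krt19, Epcam, Cd24 and Spp1), 4 rose in EPFs, 3 in CK-19-positive and 2 in the CK-19-negative nodules (28.3%, 23.4% and 8.77% of all genes), and the sum of the 6 measured was 1232 to 1499 in control, 2512 to 5226 in EPFs, 8264 to 14753 in CK-19-positive and 1381 to 3883 in the CK-19-negative nodules. Only 3 of these 6 exceeded 200 on any control array, so not all of the 4 tested could pass the signal filter through controls. Where a marker passed only through lesions, the filter itself favoured a rise, and its control signals were near background. All these values are mRNA signals. From its own expression profiling, the paper described CK-19 as poorly expressed in EPFs. By immunostaining, the paper found every EPF examined negative for CK-19 protein, with CK-19-positive oval cells in the liver around them. The sum of biliary markers was highest in CK-19-positive nodules. That sum includes Krt19, the gene of the keratin by which the nodules were sorted, so its order is partly set by the sorting. Both tested erythroid markers, Hbb and Hba-a1, fell in every lesion (medians -2.71, -2.19 and -1.41 in EPFs and the CK-19-positive and the CK-19-negative nodules), with a summed signal of 24968 to 50217 in control and 5633 to 7050 in EPFs. Of the 6 macrophage markers 3 fell in EPFs, 1 rose and 1 fell in CK-19-positive and 3 fell in the CK-19-negative nodules, and they summed to 12405 to 21095 in control, 8845 to 11408 in EPFs, 13084 to 21626 in CK-19-positive and 9247 to 11789 in the CK-19-negative nodules. Of the 6 tested stellate cell and fibroblast markers 3, 5 and 1 rose in EPFs and the CK-19-positive and the CK-19-negative nodules and none fell by limma, and the 7 measured summed to 3886 to 5246, 5420 to 11803, 7357 to 11881 and 3856 to 6356 in control, EPFs and the CK-19-positive and the CK-19-negative nodules. Only 5 of the 7 exceeded 200 on any control array, so the filter limits these counts as it does for the biliary markers. The part of these cells in the RP results was not tested.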

How the data were processed

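Laser-microdissected rat liver was profiled with RatRef-12 expression arrays of Illumina, which use a single colour. The authors loaded the intensity files into BeadStudio (3.0.19.0 per the labels) and BRB Array Tools and applied quantile normalization, and the deposited intensities are linear, with no background step stated. A deposited table before normalization (40 value columns) was not used, as its column names match no sample. Of 22523 probes, 13793 were named by the platform annotation and 8730 were not named here. The brightest probe stood for a gene.

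Log2 intensities were fitted with limma 3.58.1 in R 4.3.3 (a mean per group, 20 arrays in a common fit). Calls were made at an adjusted p under 0.05 (Benjamini-Hochberg over the 6102 genes with signal over 200 on at least 5 arrays), and the count that also passed 2-fold is given beside it. The script was tested on simulated data. The number of arrays, 5 per group, limits the precision. Arrays were compared before averaging, and none repeated another. Array numbers within a group follow the sample list, serve as names and pair nothing. A list is described by counts and medians, with no test. Exact permutation tests used scipy 1.17.1, and figures matplotlib 3.10.9 with Python 3.11.15. Promoter sequences and places are from RefSeq (GRCr8).

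The members and lists were chosen with earlier results of these data known. Values per array are given for the 6 largest and 4 smallest changes in EPFs, the 4 largest in CK-19-positive and the 2 largest in CK-19-negative nodules, and a fold only for the next in order in EPFs. The paralogs Rpl36al1 and Rpl37l1 joined their list, and Rps29, Rpl10, Rps26, genes named between lesions and genes named from the other lists were chosen, after the values were seen. Alternatives were other filters, backgrounds, scalings, probes, chip fits and tests, each array left out, and, chosen after seeing the data, signals under 300 raised to 300 and RP genes with a mean over 1000 only.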

Additional observations from a re-analysis of the deposited data

Results flagged for a closer look

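Each group of 5 arrays was examined for a highest or lowest array that stood apart (gap to the nearest array over the whole range above 0.710, Dixon's 95% value) in the 23 RP genes named by rule plus the summary levels, 100 groups in all. This gave 6 arrays, where chance gives about 1 in 20 groups. For Rpl17, CK-19-positive nodule 1 had 17493.1, above 14119.7 to 14840.0 in the other 4. For Rps3, CK-19-positive nodule 2 had 12872.6, above 8857.3 to 9878.0. For Rps27, CK-19-negative nodule 2 had 10457.6, below 19708.4 to 22294.3. For Rps2, CK-19-negative nodule 5 had 1179.7, below 2379.7 to 2853.0. For Rps10, CK-19-negative nodule 1 had 22156.2, above 14799.7 to 16725.8. For Rpl23a, EPF array 4 had 33080.1, below 36118.7 to 36902.2. The cause was not tested for any of them.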

How the results depend on the processing

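No value that was called, in the fit reported or in an alternative, changed sign in the alternatives run, while 41 values of named genes changed sign with no call in either, such as Rps27 in EPFs (0.08, and -0.06 without control 5) and Rps24 in EPFs (0.05, and -0.03 without EPF array 2). The large minus small subunit median in CK-19-positive nodules, 0.07, was -0.01 within chip 1. Under the filter used by the study, which tested 1315 genes and 20 of the RP genes, the counts called higher were 19 in EPFs (median 1.06, large minus small subunit -0.15), 14 in CK-19-positive and 5 in the CK-19-negative nodules against control, 16 for EPFs against CK-19-positive (median 0.53) and 18 against CK-19-negative nodules (median 0.88), and the median of CK-19-positive against CK-19-negative nodules was 0.39. Fewer genes were tested there. That filter keeps genes by how far their signals depart from the gene's median on a share of the arrays. Genes that differ between groups therefore pass it more easily, and the larger medians follow in part from that selection. The share of all 1315 genes called is not given, so these counts and medians lend no support to the rise. Requiring 2-fold as well left 13, 3 and 0 in EPFs and the CK-19-positive and the CK-19-negative nodules against control, and 1, 0 and 5 for EPFs against CK-19-positive, CK-19-positive against CK-19-negative and EPFs against CK-19-negative nodules.

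For CK-19-negative nodules against control, the count of 11 was 5 with the background subtracted, 4 with chip as a fixed block (large minus small 0.16), 0 within chip 1 (median 0.29), 0 within chip 2, 3 with only the groups compared and 4 with an unmoderated test. For CK-19-positive against CK-19-negative nodules, the count of 18 was 4 with chip as a fixed block, 2 within chip 1, 11 with only the groups compared and 11 with the unmoderated test. The cause was not tested. Shares of all genes under these alternatives are not given.

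With any array left out, the counts higher ranged from 44 to 47 in EPFs (median 0.73 to 0.81), 35 to 38 in CK-19-positive (0.42 to 0.50) and 5 to 13 in CK-19-negative nodules (0.13 to 0.26), 20 to 31 for EPFs against CK-19-positive nodules, 10 to 28 between the nodule groups and 39 to 44 for EPFs against CK-19-negative nodules. Of the other values of named genes, 73 lost and 14 gained a call and 2378 stayed on their side of the threshold. Of the counts and medians over the RP genes, 37 moved and 504 did not. No paired analysis was possible because in GEO's labels each group carries a single replicate number, shared by no other group. Precision is limited by 5 arrays per group and by signals near background, where a fold is understated.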
